A study of Mus musculus with 14 samples.

Results

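The fibroblast growth factor (Fgf) genes of mouse embryonic stem cells were described from chromatin immunoprecipitation followed by sequencing (ChIP-seq) of RNF2 and BAP1. Members were the protein-coding genes of the RefSeq GRCm38.p6 table named Fgf, Fgfr, Fgfrl1, Spry or Spred with a number, together with Dusp4 and Dusp6. The rule found 36 genes among 21900 protein-coding genes. Spry3 had no usable position in the table, which left 35 members among 21779 genes, namely 22 ligands, 5 receptors and 8 feedback inhibitors. The ligands were Fgf1 to Fgf18 and Fgf20 to Fgf23. The receptors were Fgfr1 to Fgfr4 and Fgfrl1, and the inhibitors were Spry1, Spry2, Spry4, Spred1 to Spred3, Dusp4 and Dusp6.

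Most Fgf ligands are secreted and bind receptor tyrosine kinases of the Fgfr family, which switch on the RAS and ERK kinase cascade. Fgf11 to Fgf14 are the exception, since they stay inside the cell and act on voltage-gated sodium channels. ERK activity in turn raises Sprouty and Spred proteins, which damp the cascade, and the Dusp phosphatases, which switch off ERK family kinases. In embryonic stem cells Fgf4 is the best known ligand and drives the exit from naive pluripotency, while many other ligands are used later, in the limb, brain, ear and gut. RNF2, also called RING1B, is the ligase of Polycomb repressive complex 1 that places ubiquitin on histone H2A, mostly at CpG-rich promoters of silent developmental genes, and BAP1 is the enzyme that removes it.

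RNF2 was precipitated in 2 BAP1 knockout (KO) libraries, in 1 RNF2 KO library and in 2 wild-type libraries. BAP1 itself was precipitated in 1 library of C91A cells, which carry Bap1C91A/-, a form without the catalytic cysteine beside an absent second allele, and in 1 library of BAP1 KO cells. Each of these 7 ChIP libraries had its own input library, which made 14 samples. All groups, wild type included, were C57BL/6 embryonic stem cells with a stated age of E3.5 to 4.5, kept for 4 days in 100 nM 4-OHT (4-hydroxytamoxifen) and 10 µM emricasan, a caspase inhibitor. C91A cells were also crosslinked in 2 mM disuccinimidyl glutarate. The labels give this step neither for the RNF2 libraries nor for BAP1 ChIP in BAP1 KO cells. The labels name neither the lines nor the clones and do not state whether the replicates of a genotype were separate cultures.

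After the authors' filtering the RNF2 libraries held 54.1 and 138.7 M tags in BAP1 KO, 119.3 M in RNF2 KO, and 58.4 and 149.3 M in wild type. Peaks on the main chromosomes numbered 7946 and 39872 in BAP1 KO, 0 in RNF2 KO, and 4038 and 28770 in wild type. BAP1 ChIP gave 2395 peaks from 414.8 M tags in C91A cells and 144 peaks from 32.5 M tags in BAP1 KO cells. The second RNF2 libraries were deeper than the first and were called with a later program version and a shorter fragment length, so the genotypes are compared within the first pair and within the second pair. A two-sided exact permutation test of 2 libraries against 2 cannot go below p = 0.333, and no p was computed. Peak lists hold no expression, so the stem cell label could not be checked against marker levels. An RNF2 peak in both wild-type libraries was listed at 1 of 7 stem cell marker genes, Esrrb, and at 1 of 5 fibroblast marker genes, Thy1. The share of all genes was 13.4%. In the second wild-type library the counts were 3 of 7 and 4 of 5, against 55.3% of all genes.

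The promoters of 5 ligands show the range of sequence on which RNF2 was or was not found. Each run below is the 250 bases upstream of the annotated start in RefSeq GRCm38.p6, on the plus strand, with each CpG in capitals. Fgf9 (chr14:58072436-58072685), a ligand of gonad and lung development, and Fgf3 (chr7:144838362-144838611), a ligand of inner ear development, had RNF2 in all 4 BAP1 KO and wild-type libraries and BAP1 peaks in the gene window. The BAP1 peak of Fgf3 lay downstream of the run shown. The gene span of Fgf9 begins at 58070671, so its run lies inside the span. The sequence at that end of the span was not examined. Fgf5 (chr5:98253934-98254183), a marker of the primed pluripotent epiblast, had RNF2 in the same 4 libraries and no BAP1 peak. Fgf4 (chr7:144861136-144861385) had RNF2 in the second libraries alone, and Fgf7 (chr2:126034408-126034657), a ligand made by mesenchyme that acts on epithelia, in none.
Fgf9: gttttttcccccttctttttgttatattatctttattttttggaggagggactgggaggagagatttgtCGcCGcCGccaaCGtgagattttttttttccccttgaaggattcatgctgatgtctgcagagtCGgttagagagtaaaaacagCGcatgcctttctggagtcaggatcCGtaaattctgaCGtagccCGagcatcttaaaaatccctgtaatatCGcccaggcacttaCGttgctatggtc
Fgf3: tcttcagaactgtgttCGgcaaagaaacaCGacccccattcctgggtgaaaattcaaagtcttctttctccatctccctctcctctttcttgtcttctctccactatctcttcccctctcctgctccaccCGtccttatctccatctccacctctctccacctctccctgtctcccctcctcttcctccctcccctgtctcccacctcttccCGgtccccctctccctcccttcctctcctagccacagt
Fgf5: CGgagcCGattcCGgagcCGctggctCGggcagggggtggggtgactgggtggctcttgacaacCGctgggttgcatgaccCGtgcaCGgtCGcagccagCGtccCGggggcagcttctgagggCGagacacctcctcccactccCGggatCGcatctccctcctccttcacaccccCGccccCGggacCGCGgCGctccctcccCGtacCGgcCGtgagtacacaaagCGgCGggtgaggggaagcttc
Fgf4: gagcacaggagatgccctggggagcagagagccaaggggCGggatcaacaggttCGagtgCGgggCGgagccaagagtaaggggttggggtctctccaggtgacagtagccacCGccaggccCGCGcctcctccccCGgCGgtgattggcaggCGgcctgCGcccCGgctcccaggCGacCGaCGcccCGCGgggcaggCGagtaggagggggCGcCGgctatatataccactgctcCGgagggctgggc
Fgf7: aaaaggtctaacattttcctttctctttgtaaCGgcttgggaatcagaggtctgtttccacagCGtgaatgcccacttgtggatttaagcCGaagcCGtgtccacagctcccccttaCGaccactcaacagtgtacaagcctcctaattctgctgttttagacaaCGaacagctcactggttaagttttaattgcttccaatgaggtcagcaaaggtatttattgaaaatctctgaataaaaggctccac

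The runs of Fgf5 and Fgf4 held 24 and 21 CpG dinucleotides and had 70.8% and 71.2% GC. Fgf9 held 11 CpG at 44.8% GC, Fgf3 held 4 at 55.2% GC, and Fgf7 held 6 at 43.6% GC. Fgf4 had almost as many as Fgf5 and no peak in either first library. Fgf3 had fewer CpG than Fgf7 in these runs, but more in the 300 bp promoter windows that reach 50 bp past the start, with 14 at Fgf3 and 11 at Fgf7.

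RNF2 lay at a larger share of Fgf genes than of all protein-coding genes in each BAP1 KO and wild-type library. Genes were called occupied when at least 1 bp of a peak fell inside the gene span or within 1 kb of it. In BAP1 KO cells 22 of 35 members were occupied in both libraries, against 26.9% of all genes. The 22 were all of the members occupied in the first BAP1 KO library, and the second alone held 32 of 35, against 63.5% of all genes. In wild-type cells both libraries had a peak at 16 of 35 members, against 13.4% of all genes. Here too the 16 were those of the first library, and the second held 33 of 35, against 55.3%. In all 4 libraries 15 members were occupied, against 13.0% of all genes. Fgf1, a ligand that binds every Fgf receptor, and Fgf7 had no RNF2 peak in any library, against 35.1% of all genes. The RNF2 KO list held no peak at all, so no gene, member or not, could have one there.

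The counts differed between the classes in the first libraries. In both BAP1 KO libraries RNF2 lay at 14 of 22 ligands, 5 of 5 receptors and 3 of 8 inhibitors. In both wild-type libraries it lay at 13 ligands, 2 receptors and 1 inhibitor. The shares of all genes were 26.9% and 13.4%, and the 1 of 8 inhibitors was near the latter. In the second wild-type library alone the counts were 20 ligands, 5 receptors and 8 inhibitors, against 55.3% of all genes. The order of the classes in wild type thus rested on the first library. At the ends of genes, a window without the gene body, both wild-type libraries had a peak at 13 members, against 11.1% of genes. In wild type, within 1 kb of annotated starts, which the promoter table gives for 26 members, 9 of 16 ligands, 2 of 4 receptors and 0 of 6 inhibitors had a peak in both, against 10.6% of genes with such a start. That window has the same length for every gene, whereas the gene spans of the members run from 1.6 kb for Fgf21 to 703.2 kb for Fgf14.

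**Figure D1:**
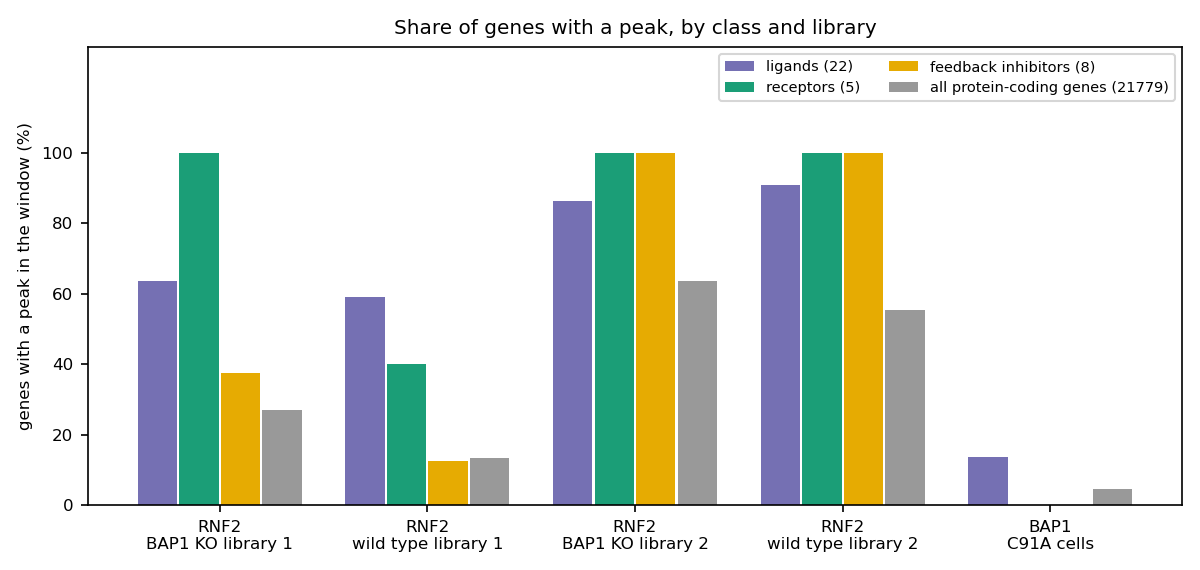
Percent of genes with at least 1 peak in the gene window, by class, for the RNF2 libraries of BAP1 KO and wild-type cells and the BAP1 library of C91A cells. Purple, green and yellow bars are the 22 ligands, 5 receptors and 8 feedback inhibitors, and grey bars are the 21779 protein-coding genes. Receptors reach 5 of 5 in both BAP1 KO libraries and in the second wild-type library, and 2 of 5 in the first wild-type library.

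The ligand subfamilies hold 2 to 4 genes each, and their counts are given as a description, beside the 13.4% of all genes with RNF2 in wild type in both libraries. All 3 genes of the Fgf9 subfamily (Fgf9, Fgf16 and Fgf20) were occupied in both wild-type libraries. Of the Fgf8 subfamily (Fgf8, Fgf17 and Fgf18) 2 of 3 were, and of the Fgf7 subfamily (Fgf3, Fgf7, Fgf10 and Fgf22) 2 of 4. The Fgf1, Fgf4 and Fgf15 subfamilies had 1 gene each, namely Fgf2, Fgf5 and Fgf15. Of the intracellular Fgf11 subfamily 3 of 4 were occupied, with Fgf14 as the exception.

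Fgf9 (chromosome 14, 58070671 to 58112854) had the greatest covered length within the gene window of all members in each of the 4 libraries. Its window held 7184 and 8631 bp of peak in BAP1 KO cells, against 7142 and 8594 bp in wild-type cells, as 1 unbroken peak in each library. The genotypes differed by 42 bp in the first pair and 37 bp in the second, less than the difference between libraries of 1 genotype. In the first wild-type list the Fgf9 peak had the highest fold enrichment among the members, 15.5, at rank 116 of 4038. The summits lay at -1294 and -306 bp from the annotated start in BAP1 KO, and at 2260 and 1321 bp in wild type, all inside the same domain.

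Its subfamily members Fgf16 and Fgf20 had shorter peaks. Fgf16 (chromosome X, 105764477 to 105776532), a ligand of heart development, had 2518 and 3126 bp in BAP1 KO, against 2401 and 3316 bp in wild type. Its peak ranked 218 in the first wild-type list with a fold enrichment of 12.8, next after Fgf9 among the members. Fgf20 (chromosome 8, 40279166 to 40286953), which acts in the inner ear and tooth, had 1242 and 2226 bp in BAP1 KO, against 377 and 1985 bp in wild type. Fgf16 thus had more covered length in BAP1 KO in the first pair and less in the second, and Fgf20 more in both.

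Fgf8 (chromosome 19, 45736491 to 45742941), the ligand of the midbrain organiser and the limb bud, was covered over nearly its whole window in the second libraries. It had 5576 and 7767 bp in BAP1 KO, against 2689 and 7585 bp in wild type, within a window of 8451 bp. Its fold enrichment in the first wild-type list was 11.4. Fgf18 (chromosome 11, 33116970 to 33147400), which acts in bone and lung, had 0 and 3436 bp in BAP1 KO, against 327 and 3770 bp in wild type. No other member had a peak in wild type and none in BAP1 KO in the first pair. Fgf17, a hindbrain and midbrain ligand of the same subfamily, had no peak in either first library, and 2296 bp in the second BAP1 KO library against 2778 bp in the second wild-type library.

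Fgf3 (chromosome 7, 144838612 to 144843348) had 2848 and 3494 bp in BAP1 KO, against 2067 and 3383 bp in wild type. Fgf10 (chromosome 13, 118714699 to 118792573), the mesenchymal signal that starts limb and lung buds, had 2301 and 3014 bp in BAP1 KO, against 1827 and 2764 bp in wild type. Both had more covered length in BAP1 KO in both pairs, and in both the second wild-type library exceeded the first BAP1 KO library. Fgf5 (chromosome 5, 98254184 to 98277033) had 3489 and 3994 bp in BAP1 KO, against 3312 and 4066 bp in wild type. Fgf2 (chromosome 3, 37348477 to 37410106), a ligand used to culture primed stem cells, had 1913 and 2548 bp in BAP1 KO, against 1153 and 2664 bp in wild type. In both of these the BAP1 KO library was higher in the first pair and lower in the second. The summits of Fgf2 lay at 89 and 34 bp from the annotated start in BAP1 KO, and at 103 and 76 bp in wild type.

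Fgf3, Fgf4 and Fgf15 lie beside each other in 62.3 kb of chromosome 7, with no other gene of the table between them, and only the outer genes had RNF2 in the first libraries. Fgf15 (144896532 to 144900953), an ileal hormone that restrains bile acid synthesis and a midline signal in the embryo, had 2505 and 3242 bp in BAP1 KO, against 1373 and 2905 bp in wild type. Fgf4 (144861386 to 144865245), which was chosen for its values here after they were seen, had 0 and 929 bp in BAP1 KO, against 0 and 657 bp in wild type. In the second wild-type list the strongest Fgf4 peak had a fold enrichment of 3.70 and rank 10208 of 28770, while those of Fgf3 and Fgf15 had 16.7 and 20.2. In the second BAP1 KO list the Fgf4 peak had 4.41 and rank 13219 of 39872, against 15.9 for Fgf3 and 22.8 for Fgf15. The strongest Fgf4 peaks began 182 bp before the start in the second BAP1 KO library and 133 bp before it in the second wild-type library. They thus reached into the run printed above, while their summits lay past the start, at 97 and 87 bp.

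**Figure D2:**
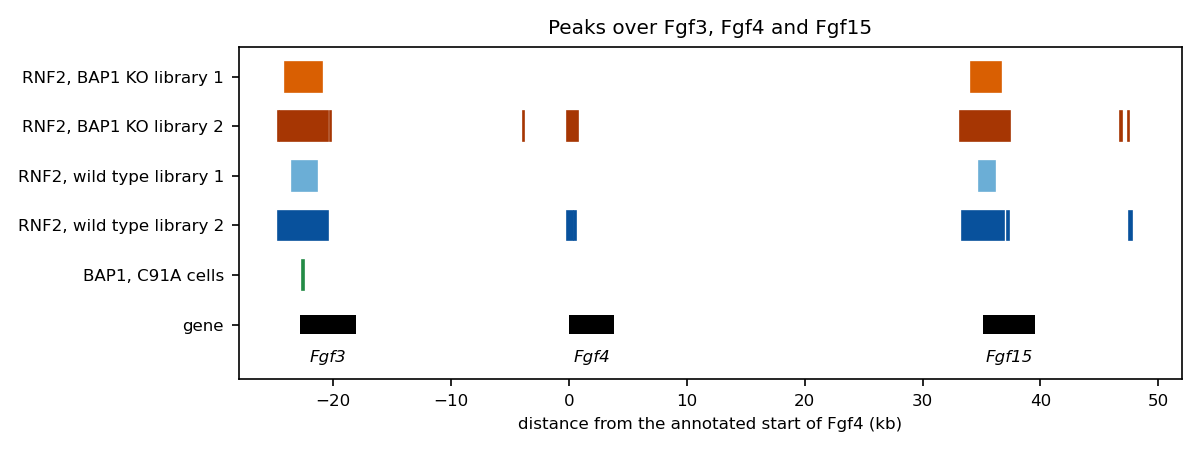
Peaks over Fgf3, Fgf4 and Fgf15, as distance in kb from the annotated start of Fgf4, with 1 row for each RNF2 library of BAP1 KO and wild-type cells and 1 for BAP1 in C91A cells. Coloured boxes are peaks and black boxes are genes. RNF2 lies at Fgf3 and Fgf15 in all 4 libraries and at Fgf4 in the second libraries alone, and the BAP1 peak of 140 bp lies at Fgf3.

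Among the intracellular Fgf genes, Fgf12 and Fgf13 have several annotated starts, and RNF2 did not lie at all of them in every library. Fgf12 (chromosome 16, 28157783 to 28753243) had 5022 and 7513 bp in BAP1 KO, against 2673 and 7077 bp in wild type. The promoter table gives 4 starts for it, and the first wild-type library covered 1 of them, at position 28446075, over the whole 2001 bp around it. The other 3 had peaks in both BAP1 KO libraries and in the second wild-type library. Fgf13 (chromosome X, 59062139 to 59585572) had 3916 and 5809 bp in BAP1 KO, against 2435 and 5959 bp in wild type. Of its 4 starts, the one at 59567348 was covered over 2001 bp in all 4 libraries, and the starts at 59585572 and 59166088 had no peak in any. The start at 59134436 had 1042 and 1776 bp in BAP1 KO, against 0 and 1841 bp in wild type.

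Fgf11 (chromosome 11, 69796068 to 69802944) was the only member whose covered length was higher in each BAP1 KO library than in either wild-type one, against 3.41% of all genes, and in 0 members the reverse held, against 0.00459%. It had 4881 and 7279 bp in BAP1 KO, against 343 and 3704 bp in wild type. The strongest peak at Fgf11 also reached Tmem102 in both BAP1 KO libraries and in the second wild-type library. Its summits in BAP1 KO lay at -1714 and -1758 bp from the Fgf11 start, outside its window. In wild type the summits lay at 697 and 686 bp, inside the gene. Which of these genes the domain belongs to cannot be told apart by position alone. Fgf14 had 764 and 3671 bp in BAP1 KO, against 0 and 2371 bp in wild type, with summits at 110 and 108 bp from the annotated start in BAP1 KO and at 202 bp in wild type.

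All 5 receptors had RNF2 in both BAP1 KO libraries, and Fgfr2 and Fgfr3 had it in both wild-type libraries. Fgfr3 (chromosome 5, 33721724 to 33737068), which restrains bone growth, had 3471 and 6163 bp in BAP1 KO, against 2601 and 5404 bp in wild type. Fgfr2 (chromosome 7, 130162451 to 130266808), the receptor of epithelia that answer Fgf7 and Fgf10, had 1477 and 3745 bp in BAP1 KO, against 1656 and 5397 bp in wild type. Fgfr2 was the only receptor with less covered length in BAP1 KO in both pairs. Its strongest peaks lay inside the gene, with summits 1509 and 1035 bp from the start in BAP1 KO and 700 and 638 bp in wild type.

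The other 3 receptors had no peak in the first wild-type library. Fgfr1 (chromosome 8, 25518759 to 25575718), the main Fgf receptor of pluripotent cells, had 403 and 4222 bp in BAP1 KO, against 0 and 3184 bp in wild type. Fgfr4 (chromosome 13, 55152818 to 55168759), the receptor for Fgf15 in liver, had 558 and 4931 bp in BAP1 KO, against 0 and 2684 bp in wild type. Fgfrl1 (chromosome 5, 108694229 to 108706950), a receptor without the kinase domain, had 388 and 2792 bp in BAP1 KO, against 0 and 2568 bp in wild type. In the first BAP1 KO list these peaks were weak, with fold enrichments of 2.25, 3.28 and 2.98 at ranks 7817, 6036 and 6732 of 7946. Fgfr3 had 22.5 at rank 247 in the same list.

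Among the feedback inhibitors, Dusp4 alone had RNF2 in both wild-type libraries. Dusp4 (chromosome 8, 34807610 to 34819894), a nuclear phosphatase of ERK, had 3744 and 5523 bp in BAP1 KO, against 1586 and 4295 bp in wild type. Dusp6 (chromosome 10, 99263231 to 99267489), the cytoplasmic ERK phosphatase, had 534 and 2320 bp in BAP1 KO, against 0 and 745 bp in wild type. Spry1 (chromosome 3, 37639947 to 37644599), a Sprouty protein that limits Fgf and other receptor kinase signals, had 663 and 3225 bp in BAP1 KO, against 0 and 1486 bp in wild type. These 3 genes had more covered length in BAP1 KO in both pairs.

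The remaining inhibitors, Spry2, Spry4 and Spred1 to Spred3, had no peak in either first library and a peak in both second libraries. Spry2 had 571 bp in BAP1 KO against 730 bp in wild type, and Spred1 had 1283 bp in BAP1 KO against 1074 bp in wild type. Spred2 had the shortest coverage, with 275 bp in BAP1 KO against 103 bp in wild type. Spred3 had 4686 bp in BAP1 KO against 468 bp in wild type, and Spry4 had 1593 bp against 1231 bp. Peaks at Spred3 also reached Ggn, and those at Spry4 reached Arhgap26, so these values are shared with a neighbour. Across the members this held for 5 genes, the others being Fgf11 with Tmem102 and Chrnb1, Fgf17 with Dmtn and Fgf21 with Fut1.

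New RNF2 peaks in BAP1 KO were found at members in the first pair and at none in the second. In the first pair 7 members had a peak in BAP1 KO and none in wild type, against 13.9% of all genes. They were the ligands Fgf14 and Fgf23, the receptors Fgfr1, Fgfr4 and Fgfrl1, and the inhibitors Dusp6 and Spry1. Of the 19 members unoccupied in the first wild-type library, 7 were thus occupied in the first BAP1 KO library, against 16.0% of such genes. All 7 were occupied in the deeper wild-type library. Of the 17 members occupied in wild type in that library alone, 7 gained a peak in the first pair, against 32.8% of such genes. In the second pair 0 members were gained, against 9.64% of all genes, with 33 of 35 already occupied in wild type. Across all 4 libraries 0 members were gained, against 0.133%, and 0 were lost, against 0.00%.

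Lists of equal length gave another count. Every RNF2 list of BAP1 KO and wild type was cut to 4038 peaks, the length of the shortest, keeping those with the highest −log10 q. The first pair then gained 1 of 35 members, Fgf23, against 4.67% of all genes, and the second gained 1, Fgf11, against 3.05%. The second pair then lost 2, Fgf14 and Fgfr1, against 2.27% of all genes, and both are among the 7 gained in the first pair with the full lists. Fgf23 (chromosome 6, 127072902 to 127082296), a bone hormone that lowers blood phosphate, had 1074 and 2686 bp in BAP1 KO, against 0 and 1526 bp in wild type. Its strongest peak lay far from the promoter, with summits at 7394 and 7417 bp from the start in BAP1 KO and at 7454 bp in wild type. Within 1 kb of its start no library had a peak. The values of the 7 gained members were given after they had been seen, since none of their peaks reached the top 25 percent of the first BAP1 KO list.

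Few members lost a peak. In the first pair Fgf18 was the only one, against 0.377% of all genes. In the second pair it was Fgf6, a ligand of skeletal muscle, against 1.40% of all genes, with 0 bp in BAP1 KO against 274 bp in wild type. Neither loss recurred in the other pair, and neither was found with peaks held to a −log10 q of at least 5. The ligands Fgf21, a liver hormone, and Fgf22, which acts at synapses, had peaks in the second libraries alone. Fgf21 had 1099 bp in BAP1 KO against 609 bp in wild type, and Fgf22 had 618 bp against 190 bp.

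Covered length was greater in BAP1 KO at most occupied members, as it was at most occupied genes. It was greater in the first pair at 21 members, against 25.8% of all genes, and in the second at 24, against 55.4%. It was smaller in the first pair at 2 members, against 1.14%, and in the second at 9, against 8.79%. In both pairs it was greater at 17 members, against 21.8% of all genes, and smaller at 2, Fgf18 and Fgfr2, against 0.418%. With lists of equal length it was greater in both pairs at 11 members, against 10.3% of all genes. All these shares include genes with no peak at all. Among genes with a peak in all 4 libraries, 10 of 15 members had more covered length in both pairs, against 66.5% of such genes, and 1 of 15, Fgfr2, had less, against 2.29%. In the first pair alone 14 of the 15 had more, against 91.8%, and in the second 10 of 15, against 69.6%. The share of members with longer coverage was thus close to that of all such genes.

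The sizes were also close to those of all genes. At the 15 members with a peak in all 4 libraries, the ratio of covered length in BAP1 KO to that in wild type had a median of 1.61 in the first pair, from 0.892 at Fgfr2 to 14.2 at Fgf11. Over all 2840 such genes the median was 1.65. In the second pair the members had a median of 1.03, from 0.694 at Fgfr2 to 1.97 at Fgf11, against 1.08 over all such genes. The BAP1 KO library held 0.926 times the tags of the wild-type library in the first pair and 0.929 times in the second. With a change of at least 20 percent required in both pairs, 8 members had more covered length, against 14.6% of all genes, and 0 had less, against 0.0597%. Of the 15 members with a peak in all 4 libraries, 2 passed this limit upwards, Fgf11 and Dusp4, against 28.5% of such genes, and 0 downwards, against 0.0352%. The 8 were Fgf11, Fgf14, Fgf23, Fgfr1, Fgfr4, Dusp4, Dusp6 and Spry1.

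**Figure D3:**
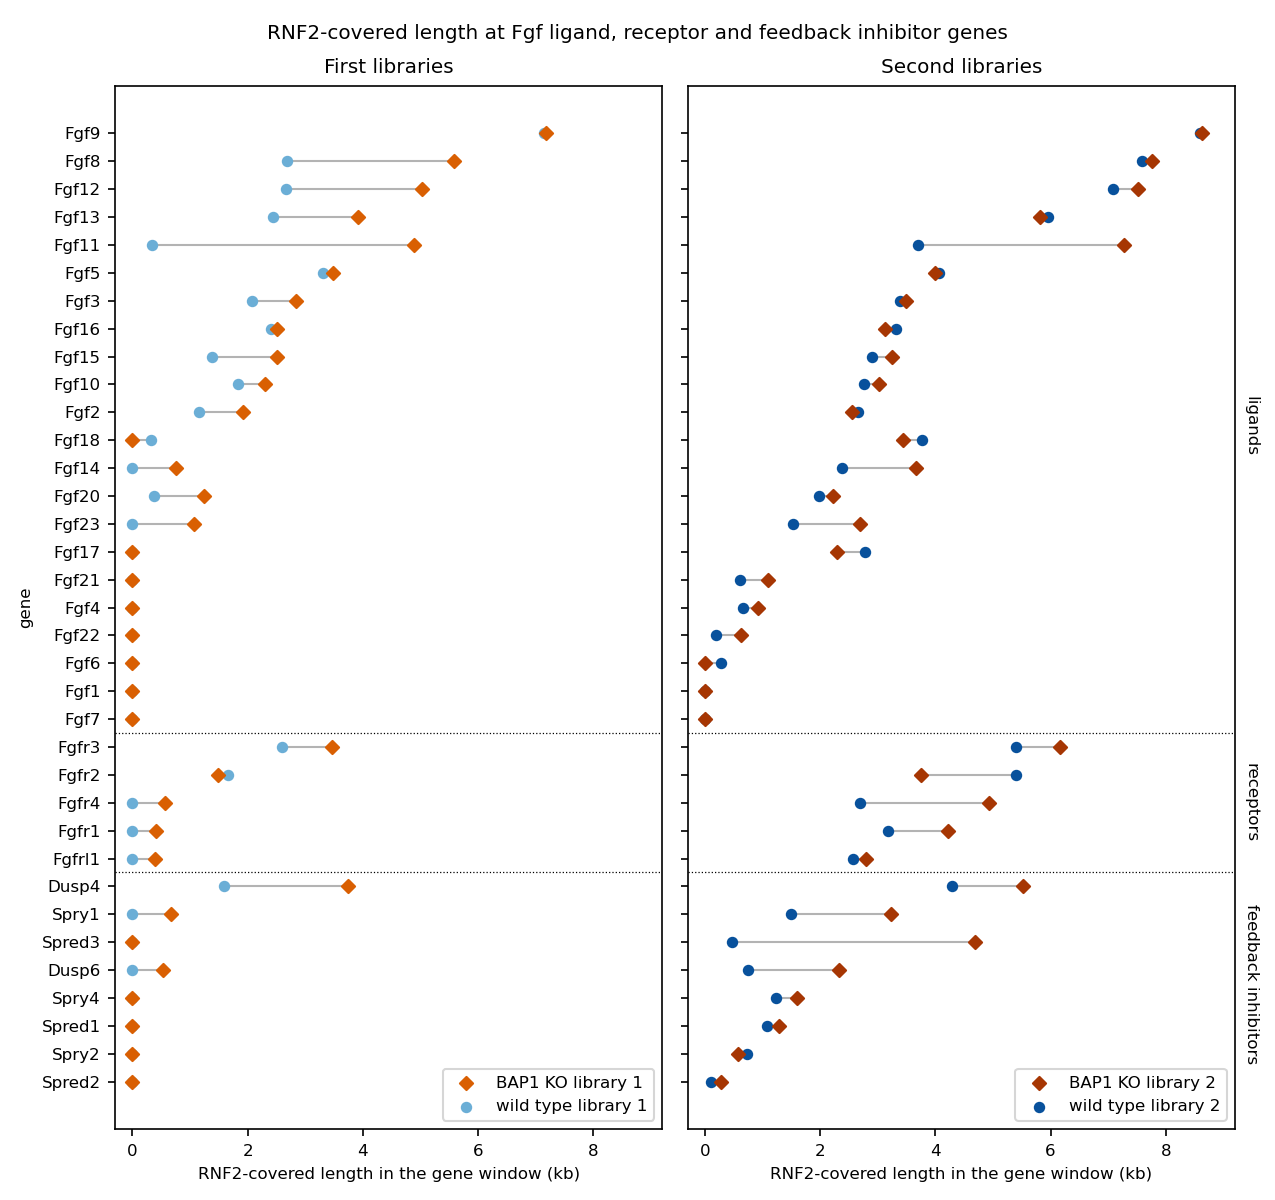
RNF2-covered length in kb in the window of each of the 35 members, for the first pair of libraries on the left and the second on the right. Diamonds are BAP1 KO, circles are wild type, and grey lines join the libraries of a pair. At Fgf11 both diamonds lie to the right of both circles, at 4881 and 7279 bp in BAP1 KO against 343 and 3704 bp in wild type, while at Fgf9 the symbols of each pair nearly coincide.

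The Fgf genes also held strong RNF2 peaks. In the first libraries a member's strongest peak lay in the top 10 percent of its list by fold enrichment at 6 members in BAP1 KO, against 3.50% of all genes, and at 4 members in wild type, against 1.72%. The 4 in wild type were Fgf5, Fgf8, Fgf9 and Fgf16, and Fgf3 and Fgfr3 joined them in BAP1 KO. In the second libraries the counts were 19 in BAP1 KO, against 16.6%, and 16 in wild type, against 12.0%. Of the 8 inhibitors 0 were in the top 10 percent in either first library, and 1, Dusp4, was in both second libraries. In so small a class these counts are near the shares of all genes.

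BAP1 in C91A cells was found at 3 members, all of them ligands, against 4.52% of all genes. At Fgf9 there were 7 BAP1 peaks of 53 to 772 bp, which covered 1805 bp. At Fgf8 there were 3 peaks over 246 bp, and at Fgf3 there was 1 peak of 140 bp. The Fgf9 peaks lay on both sides of the annotated start, with summits between -1508 and 2192 bp, and the Fgf3 summit lay 182 bp inside the gene. In C91A cells 0 of 5 receptors and 0 of 8 inhibitors had a BAP1 peak. With 4.52% of all genes called, counts of 0 in classes this small do not set them apart. In BAP1 KO cells 0 members had a BAP1 peak, against 0.124% of all genes. The BAP1 KO library held 32.5 M tags against 414.8 M, and its labels do not give the disuccinimidyl glutarate step. It was thus not a like-for-like control.

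All 11 BAP1 peaks lay wholly inside RNF2 peaks of each of the 4 BAP1 KO and wild-type libraries. The 3 genes were thus among the 16 with RNF2 in both wild-type libraries, a combination held by 2.23% of all genes. Among genes with RNF2 in both wild-type libraries, BAP1 lay at 3 of 16 members and at 485 of all 2922 such genes. The share of members with BAP1 was thus close to that of all such genes. The BAP1 peaks were weak. Their fold enrichments were 2.81 to 3.99, the best rank was 391 of 2395, at Fgf9, and 0 members were in the top 10 percent of that list, against 0.836% of all genes. With peaks held to a −log10 q of at least 5 there were 0 members with BAP1, against 1.33% of all genes. BAP1 ChIP in C91A cells had 1 library and no replicate.

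**Figure D4:**
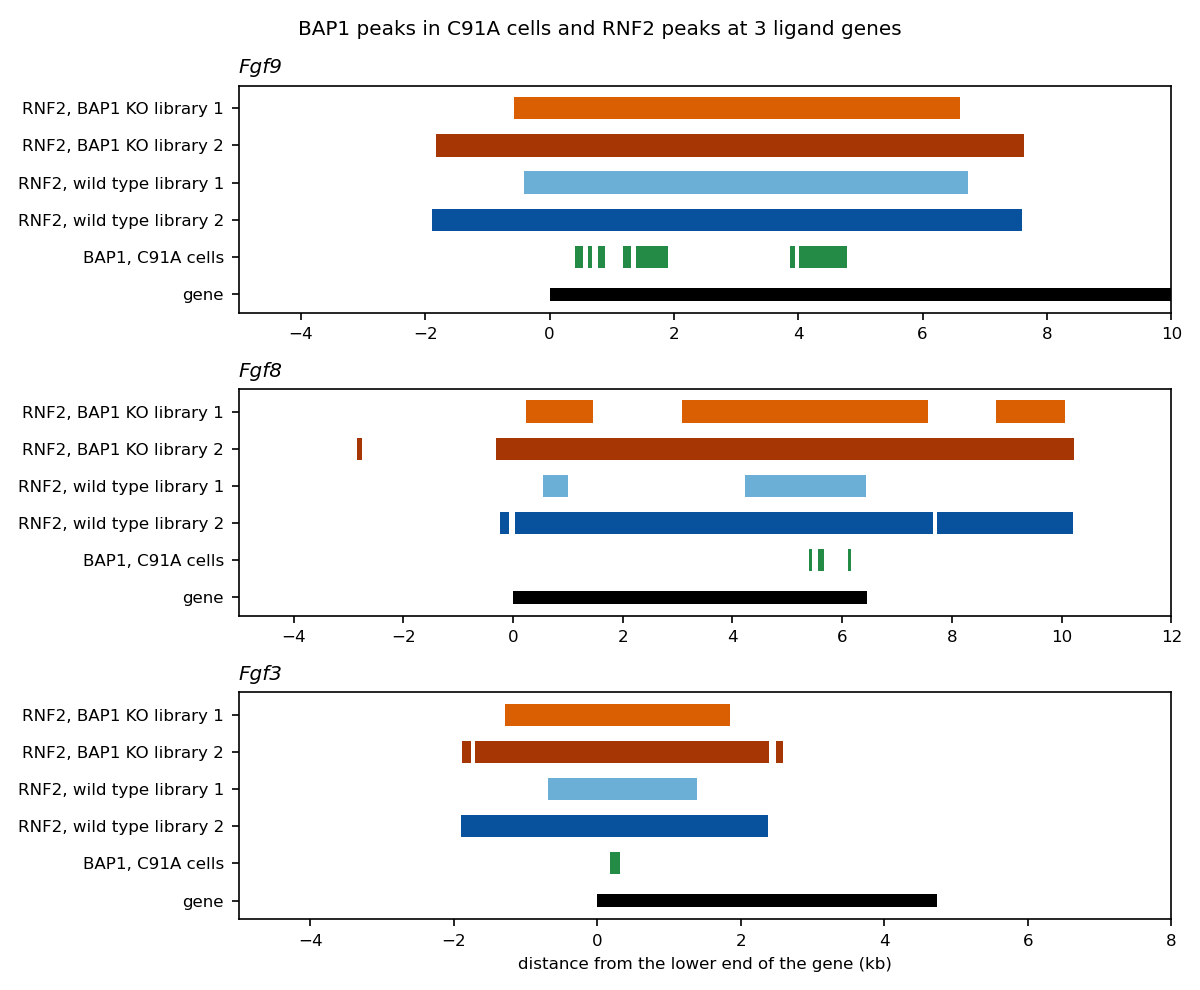
Peaks at Fgf9, Fgf8 and Fgf3, as distance in kb from the end of each gene with the lower coordinate. Rows are the RNF2 libraries of BAP1 KO and wild-type cells, BAP1 in C91A cells and the gene as a black bar, which runs past the axis for Fgf9. The 7, 3 and 1 BAP1 peaks lie inside the RNF2 peaks of all 4 libraries.

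The Fgf promoters were richer in CpG than those of all genes. The promoter table gave 33 promoters of 300 bp for 26 members. A promoter was called CpG-rich with at least 50% GC and a CpG count of at least 0.6 times that expected from its bases. This held for 63.6% of the 33 member promoters and for 45.1% of all 21263 promoters. An RNF2 peak reached 9 of the 33 in both wild-type libraries, a share of 27.3% against 7.99% of all promoters. Among CpG-rich promoters alone the shares were 33.3%, or 7 of 21, for the members and 13.6% for all.

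The promoters with RNF2 in both wild-type libraries were not all CpG-rich. The Fgf9 window had 42.7% GC with a CpG ratio of 0.88, and the Fgf10 window had 60.7% GC with a CpG ratio of 0.394. Both were reached by RNF2 in all 4 libraries. The Fgf9 window lies inside the gene span, and the sequence where that span begins was not examined. In the other direction, the windows of Spred1, Fgf18 and Fgfrl1 had 72.3%, 78.7% and 73.7% GC with CpG ratios of 1.03, 1.02 and 0.96. RNF2 reached these 3 in both second libraries and in neither first library. These are descriptions of letters in a window, and the part of CpG content in RNF2 binding was not tested.

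**Figure D5:**
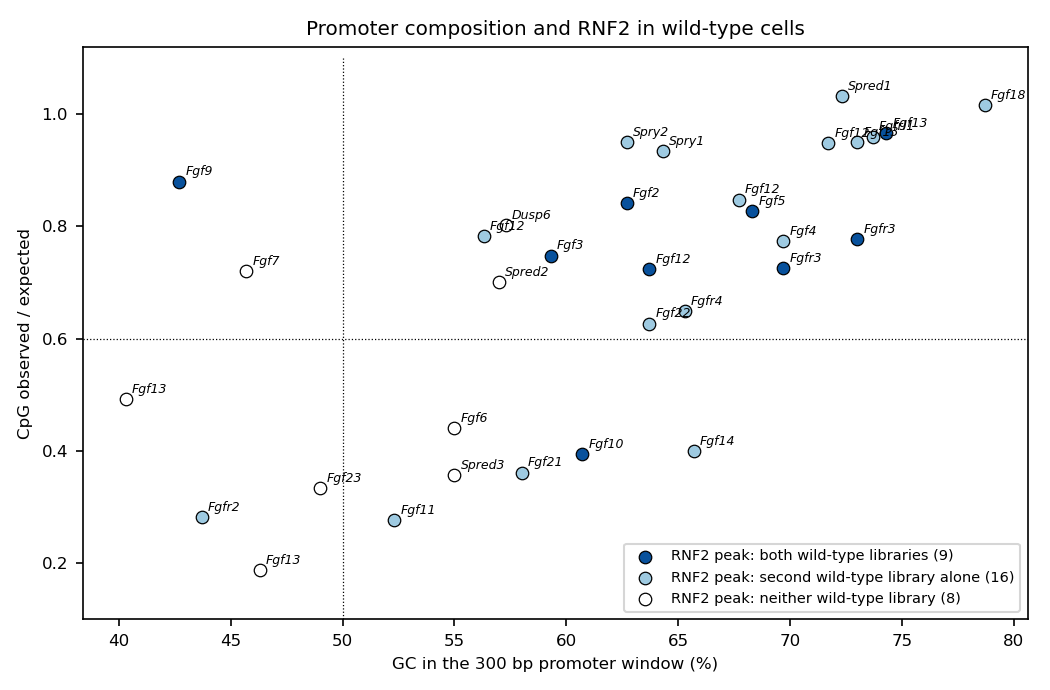
GC content in percent and CpG ratio (observed over expected) of the 33 promoter windows of 300 bp for 26 members. Dark points had an RNF2 peak in both wild-type libraries (9), light points in the second wild-type library alone (16) and open points in neither (8); dotted lines mark 50% GC and a ratio of 0.6. Fgf9 lies alone at 42.7% GC among the dark points, and Fgf1 and other members without a promoter entry are not plotted.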

How the data were processed

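RNF2 and BAP1 ChIP-seq and input libraries of mouse embryonic stem cells were analysed from the deposited peak lists. The submitters' processing notes name the aligner GSNAP and the build GRCm38 (mm10). The authors called peaks in each ChIP library against its input with MACS2 at a q-value of 0.05, version 2.1.0.20150420 for the first RNF2 libraries and both BAP1 libraries and 2.1.1.20160309 for the second RNF2 libraries and RNF2 KO, per the file headers. Fragment lengths were 323 and 100 bp in BAP1 KO and 297 and 100 bp in wild type, and redundant tags were 0.00 and 0.28 in BAP1 KO and 0.00 and 0.25 in wild type, per the file headers. The deposited lists give each peak's length, its pileup signal, a −log10 p-value, a −log10 q-value and a fold enrichment, which is a ratio over local background. Fold enrichment was the authors' value and was used to describe and rank peaks within a list. The −log10 q served as an alternative threshold and to cut lists to equal length, and pileup signal was not compared.

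Peaks were intersected with gene spans of the RefSeq GRCm38.p6 table (Python 3.11.15, numpy 2.4.6, pandas 2.3.3), extended by 1 kb on each side. Covered length is the number of window bases under any peak. Genes with positions below 3 Mb, chromosome Y apart, were left out as unplaced. The intersection was tested on simulated peaks. The library without a number in the labels was taken as the first. All members are named. Values in every library follow for members with RNF2 in both wild-type libraries, with BAP1, or gained or lost with a peak in the top 25 percent of its list; values of other members were chosen after they were seen. Members and lists were chosen with earlier results of these data known. Tags per library limit which peaks could be called. Alternatives were window, threshold, overlap, equal list lengths and leaving out a library. FLAG ChIP was not analysed here.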

Additional observations from a re-analysis of the deposited data

How the results depend on the processing

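Of 157 alternative values for 15 counts, 123 stayed within 1.5 times the reported count and 34 did not, as follows. With 1 wild-type library left out, the count rested on the other alone. That gave 16 to 33 members with RNF2 in wild type, against 13.4% to 55.3% of all genes. By class it gave 13 to 20 ligands, 2 to 5 receptors and 1 to 8 inhibitors, against the same shares. With 1 library of either genotype left out, covered length was compared in 1 pair alone. It was less in BAP1 KO at 2 to 9 members, against 1.14% to 8.79% of all genes. The highest of these counts came without the first wild-type library (for less covered length also without the first BAP1 KO library). With a −log10 q of at least 5 or 10, BAP1 lay at 0 and 0 members (0 and 0 ligands). The shares of all genes were 1.33% and 0.101%. At these thresholds the second pair gained 2 and 4, against 13.1% and 14.6%. The first pair lost 0 at either, against 0.317% and 0.147%, and the second lost 0, against 1.38% and 0.826%. Members with less covered length in both pairs numbered 1 and 0, against 0.377% and 0.28%. At gene ends, with 35 members, and at annotated starts, with 26, the second pair gained 2 and 1, against 9.67% and 9.84% of genes. It lost 0 and 0, against 1.32% and 1.34%. More covered length in both pairs was found at 10 and 7 members, against 16.5% and 15.2%. Less was found at 1 and 1, against 0.248% and 0.263%. At starts 0 of 6 inhibitors had RNF2 in both wild-type libraries, against 10.6%. With 200 bp of overlap the second pair gained 2, against 11.2% of all genes. With lists of equal length the pairs gained 1 and 1, against 4.67% and 3.05%. The second pair then lost 2, against 2.27%, and 11 members had more covered length in both pairs, against 10.3%. A change of at least 20 percent, chosen after seeing the data, left 8 with more, against 14.6%, and 0 with less, against 0.0597%. The cause of these differences was not tested.

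No paired analysis was possible because the counts come from no test, so there is no fit to block by replicate number; the genotypes were set side by side within each pair of libraries instead. Depth, program version and fragment length changed together between the first and second libraries, so their parts in the counts cannot be told apart. The second RNF2 libraries found peaks at nearly all members, which leaves little room for gains there. A peak absent from a list does not show that RNF2 was absent, and covered length is no measure of RNF2 amount.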

Other observations

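Other genes of the Fgf pathway had RNF2 peaks as well, in both wild-type libraries at a share near that of all genes. Of 40 such genes, listed with earlier results of these data known, 39 were in the gene table. In both BAP1 KO libraries 16 had an RNF2 peak, against 26.9% of all genes, and in both wild-type libraries 7 did, against 13.4%. The 7 were Kl, the co-receptor for Fgf23, Flrt1 and Flrt2, membrane proteins that bind Fgf receptors, Sos2, an exchange factor for RAS, the adaptors Gab1 and Gab2, and Fgfbp3, a carrier of secreted ligands. Flrt2 had 5295 and 6660 bp of peak in BAP1 KO, against 4605 and 6965 bp in wild type. Kl had 1909 and 3920 bp in BAP1 KO, against 1525 and 4074 bp in wild type. Gab1 had 2684 and 3978 bp in BAP1 KO, against 1155 and 3120 bp in wild type, higher in BAP1 KO in both pairs. Flrt1 had 3094 and 8590 bp in BAP1 KO, against 997 and 4858 bp in wild type. Sos2 had 1507 and 3454 bp against 433 and 2733 bp, and Gab2 had 1125 and 2800 bp against 675 and 2317 bp. Fgfbp3 had 1833 and 2237 bp against 653 and 2045 bp. Like Gab1, Flrt1, Sos2, Gab2 and Fgfbp3 were thus higher in BAP1 KO in both pairs.

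Among the kinases and RAS genes, Nras, Araf and Map2k2 had no RNF2 peak in any library. Across the list 5 of the 39 had none, against 35.1% of all genes. In the first pair 9 of the 39 had a peak in BAP1 KO and none in wild type, and in the second pair 5 did, against 13.9% and 9.64% of all genes. Covered length was greater in BAP1 KO in both pairs at 14 and smaller in both at 0, against 21.8% and 0.418% of all genes. Etv4, a transcription factor that ERK signalling induces, was the 1 gene of 39 with BAP1 in C91A cells, against 4.52% of all genes. BAP1 covered 108 bp there with a fold enrichment of 3.47. Etv4 had 416 and 1906 bp of RNF2 in BAP1 KO, against 0 and 1053 bp in wild type.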
